A study of Mus musculus with 7 samples.

Results

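The 10 genes described here, out of 24421 gene symbols measured, encode proteins of bone and cartilage matrix and their regulators: Spp1, Ibsp, Prg4, Cilp, Comp, Thbs4, Mgp, Alpl, Sox9 and Sparc. They were chosen by name, with their values in these same libraries already known. Their differences between the groups are therefore given as a description, with fold changes and standard errors but no p-values. Messenger RNA had been counted from the 3' ends of polyadenylated transcripts in 7 libraries of sorted stromal cells from BALB/c mice. The group pCAF (3 libraries) held fibroblasts from primary tumors, which grew after 100000 4T1-luc cells, a mouse mammary carcinoma line carrying luciferase, were injected into the lower left mammary fat pad of 8-week-old females. Tumors were taken at 1 cm, and the sort kept cells that carried podoplanin (PDPN) and lacked Ter119, CD45 and EpCAM. The group NMF (4 libraries) held untreated normal fat pad cells, lacking the same 3 markers and not selected on PDPN, from mice labelled 12 weeks old, although the design text speaks of age-matched mice.

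In the bone matrix, type I collagen fibrils are seeded with mineral in the presence of acidic phosphoproteins, and tissue-nonspecific alkaline phosphatase removes pyrophosphate, an inhibitor of mineral growth. In cartilage, tendon and joints, a different set of secreted proteins organizes collagen fibrils and lubricates surfaces, and many cartilage genes are controlled by the transcription factor SOX9. Fibroblasts of scars and tumors are known to express several of these genes outside the skeleton.

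The outline of the result was that Spp1, Ibsp, Prg4, Cilp, Thbs4 and Sparc were higher in pCAF, that Mgp, Alpl and Sox9 had overlapping values, and that Comp was close to 0 counts in pCAF. A filter on low counts kept 9 of the 10 genes, all but Comp. The 9 include Ibsp, kept only through its pCAF libraries, whereas Comp, with more counts in NMF, was left out. Of these 9, 6 were higher in pCAF at an adjusted p under 0.05 in edgeR's quasi-likelihood test and 0 were lower (0 also at an unadjusted p under 0.05 and 0 with DESeq2's test). Over all 10535 genes tested, 28.4% passed, 14.3% as higher and 14.2% as lower. The 6 genes also had no overlap, with all pCAF values above all NMF values, as had 19.0% of all genes tested; the reverse order, seen here only in the untested Comp, was found in 21.4%. Nothing is read from these counts, because this contrast was in view when the genes were chosen. Levels are in CPM, read counts relative to the library size after TMM scaling, and values within a group are listed in the order of replicate number.

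**Figure D1:**
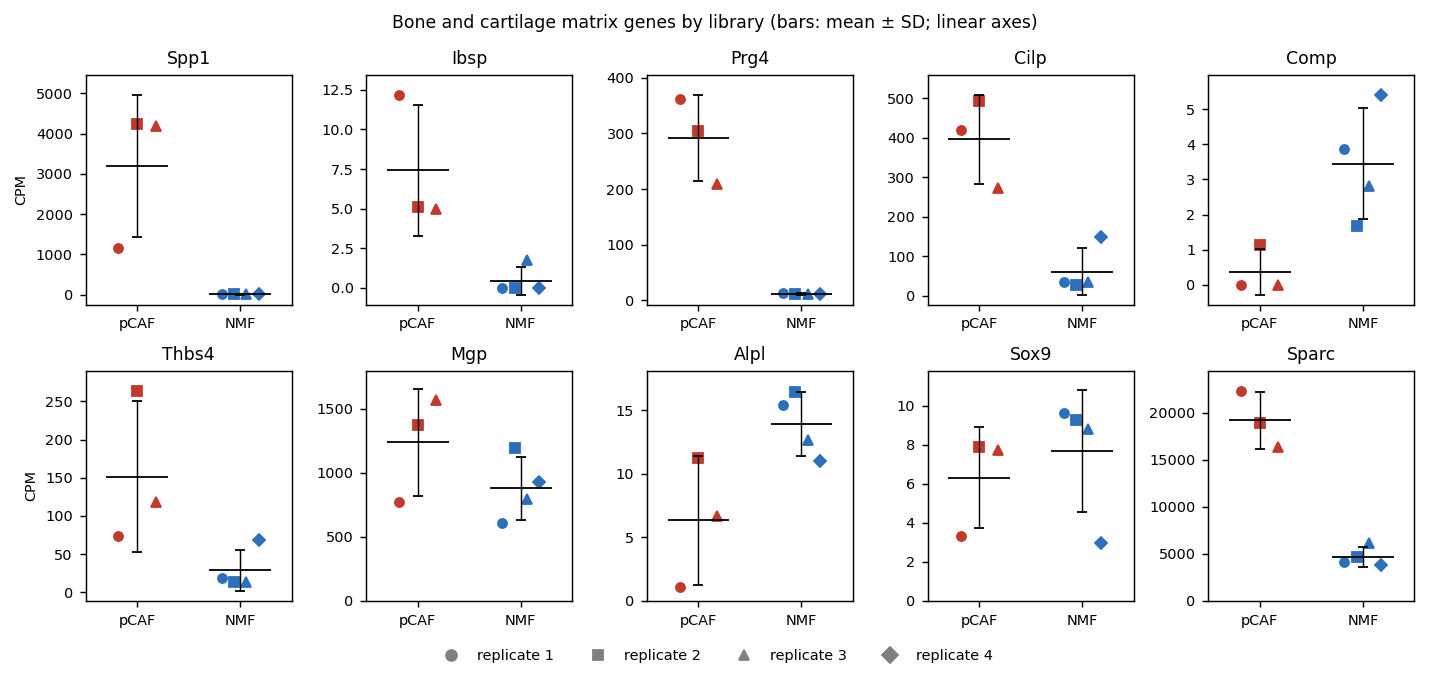
CPM of each of the 10 genes in each library, on linear axes, with 3 pCAF libraries in red and 4 NMF libraries in blue; bars give the mean ± SD. Spp1, Prg4 and Sparc are separated by wide gaps, Cilp and Thbs4 are high in NMF replicate 4, and Mgp, Alpl and Sox9 overlap.

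Several facts on the libraries touch these values. Total counts ran from 1885039 to 4990070. pCAF replicate 1 and NMF replicate 4 stood apart: their Pearson correlations of log2 CPM with libraries of their own group reached at most 0.898, against at least 0.961 among the others. Without both, 2802 of 10838 tested genes were higher and 2913 lower at an adjusted p under 0.05. Passing in that fit was therefore common. The selection label of pCAF replicate 3 reads PDPN negative, against its source label, and its Pdpn count of 692 lay between 498 and 1779 in the other pCAF libraries. Summed fibroblast markers were at 69001 to 80265 CPM in pCAF and 22031 to 41131 CPM in NMF. Most of that sum was Col1a1, Col1a2 and Col3a1, at means of 28180, 23261 and 16054 CPM in pCAF. Of the 7 fibroblast markers, 5 were higher in pCAF and 2, Pdgfra (log2 0.05) and Dcn (log2 -0.85), did not pass. Dcn was at 4653 against 8364 CPM, with every NMF library above every pCAF library. All 8 blood endothelial markers were lower in pCAF (summed 35.5 to 42.7 CPM against 1185 to 1730), as were all 4 Schwann cell markers (0 to 3.38 against 138 to 665 CPM) and all 3 tested of the 5 adipocyte markers (0 to 5.54 against 50.3 to 102 CPM). Fewer cells of a type and less RNA per cell cannot be told apart in such bulk libraries. No label names the animals behind the libraries, so SDs and tests measure the spread between these samples.

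**Figure D2:**
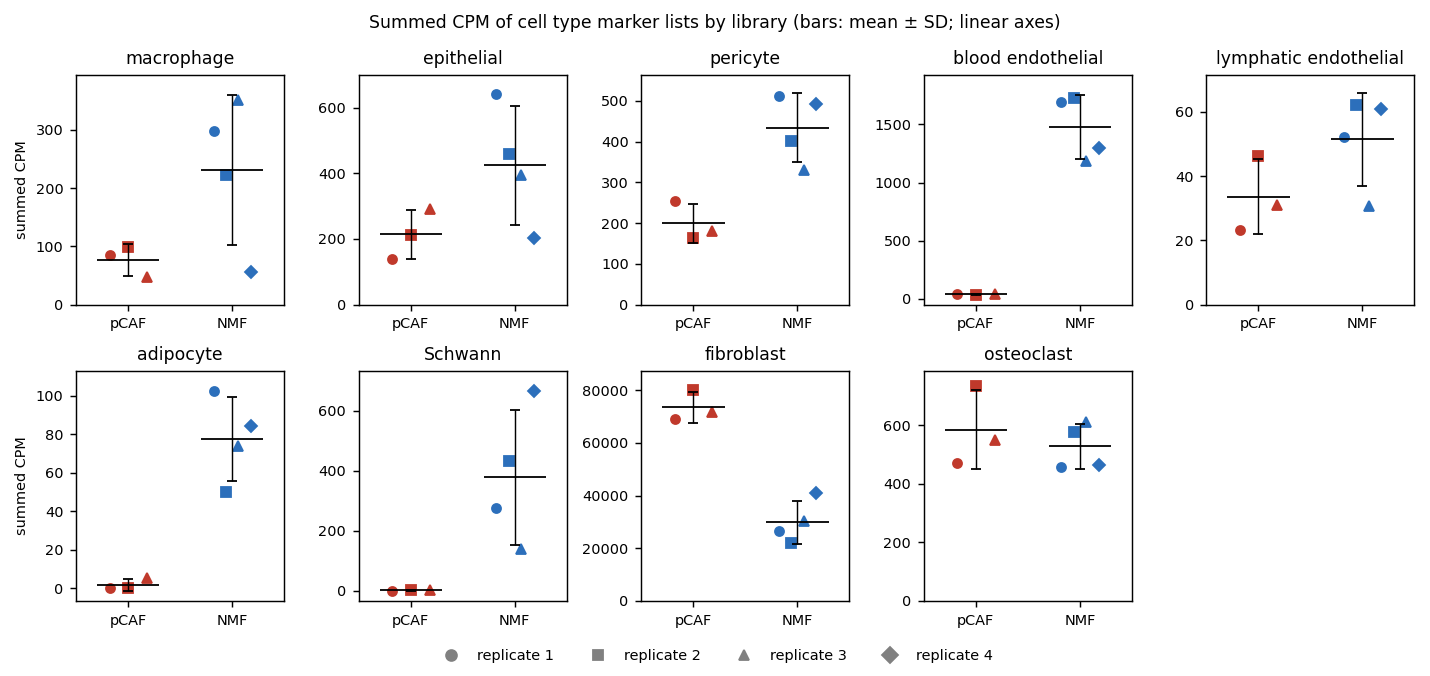
Summed CPM of 9 marker lists per library on linear axes, pCAF in red and NMF in blue, with bars for the mean ± SD. Blood endothelial, Schwann and adipocyte sums are near 0 in pCAF, and NMF replicate 4 has the highest Schwann sum (665 CPM) and the lowest macrophage sum of its group (55.5 CPM).

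Promoter windows show what the genes have in sequence near their start sites. RefSeq windows on GRCm38.p6, reaching from 250 bases before to 50 after a start, were at hand for 6 of the genes and 8 starts. The RUNX motif TGTGGT, of interest because the title of the series names RUNX1, was sought on both strands. It was present in 3 of these 8 windows, those of Spp1, Cilp and Sparc, and in 16.8% of all 32851 windows. TATAAA was in 3 of the 8 (13.6% of all) and the AP-1 motif TGANTCA in 0 (7.81% of all). The searched motifs do not overlap each other in these windows. The windows of 3 genes are printed: the neighbours Spp1 and Ibsp, which were both higher in pCAF, and Cilp, which shares the RUNX letters with Spp1. They lie at chr5:104434861-104435160, chr5:104299037-104299336 and chr9:65264930-65265229, all on the plus strand, and capitals mark the motif letters as read on the gene's strand.
Spp1: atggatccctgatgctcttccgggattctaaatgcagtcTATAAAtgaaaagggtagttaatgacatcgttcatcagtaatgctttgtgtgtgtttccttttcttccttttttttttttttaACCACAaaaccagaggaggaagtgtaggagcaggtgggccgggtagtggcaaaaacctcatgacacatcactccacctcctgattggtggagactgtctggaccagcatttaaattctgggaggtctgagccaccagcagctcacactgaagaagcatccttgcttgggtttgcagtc
Ibsp: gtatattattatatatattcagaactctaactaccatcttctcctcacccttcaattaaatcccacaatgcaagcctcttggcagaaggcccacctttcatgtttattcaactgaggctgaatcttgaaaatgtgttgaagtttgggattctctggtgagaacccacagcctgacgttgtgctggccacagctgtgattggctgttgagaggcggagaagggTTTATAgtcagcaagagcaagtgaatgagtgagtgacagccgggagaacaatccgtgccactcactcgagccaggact
Cilp: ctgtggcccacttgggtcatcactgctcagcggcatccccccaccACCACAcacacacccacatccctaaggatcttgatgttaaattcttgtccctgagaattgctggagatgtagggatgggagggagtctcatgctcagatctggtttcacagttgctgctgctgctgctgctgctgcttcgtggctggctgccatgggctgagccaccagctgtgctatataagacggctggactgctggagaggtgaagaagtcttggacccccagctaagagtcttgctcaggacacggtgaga
The RUNX letters, reading ACCACA on the gene's strand, begin 128 bases upstream of the start in Spp1 and 205 bases upstream in Cilp. In Sparc they begin at base 36 of the transcript. TATAAA begins 211 bases upstream in Spp1, and its reverse complement begins 28 bases upstream in Ibsp. A match describes letters, not binding. Runx1 itself was at 155 ± 90.1 CPM in pCAF and 3.11 ± 1.65 CPM in NMF, and Runx2, the main transcription factor of osteoblasts, at 44.99 ± 16.2 and 11.3 ± 1.45 CPM (SD, n = 3 and n = 4).

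Among the acidic phosphoproteins of bone, Spp1 and Ibsp were both higher in pCAF. Spp1 encodes osteopontin, a secreted ligand of integrins and CD44 that binds calcium and is also made by macrophages and tumor cells. It lies on mm10 chromosome 5, 104435118 to 104441050, plus strand. Its level was 1161, 4234 and 4196 CPM in pCAF and 3.09, 4.65, 21.8 and 4.67 CPM in NMF. pCAF replicate 1 was the lowest of its group and NMF replicate 3 the highest of its own, with a wide gap between the groups. The means were 3197 ± 1764 and 8.56 ± 8.88 CPM (SD, n = 3 and n = 4), a fold of 374 (log2 8.55, SE 0.82). Without NMF replicate 3 the fold was 754, and without both libraries that stood apart it was 410.2. The annotation places another transcript, Gm42793 (104435121 to 104436372), on the same strand within Spp1, so reads from that stretch are not unique to 1 gene model. That stretch is at the 5' end of the Spp1 locus, and the libraries were counted from 3' ends. However, Gm42793 also matches the last 300 bp of an annotated Spp1 transcript. Its part in the Spp1 counts was not tested.

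Macrophages and epithelial cells also make osteopontin, and their markers were measured. Of 12 macrophage markers, 9 were tested, of which 6 were lower in pCAF, among them C1qa and Cd68, and 3 did not pass. The 3 were Lyz2 (log2 -1.72), Csf1r (log2 1.21, 16.5 against 7.15 CPM) and Cd14 (log2 0.13). The sum of all 12 markers ran from 46.6 to 99.7 CPM in pCAF and from 55.5 to 351 CPM in NMF. Ptprc, which encodes CD45, a marker the sort selected against, and Adgre1 were at 0 counts in every pCAF library. Within NMF the macrophage sum was highest, 351 CPM, in replicate 3, the library with the highest Spp1; its part in that value was not tested. Of 12 epithelial markers, 10 were tested, of which 4 were lower in pCAF and 6 did not pass; their sum ran from 137.5 to 289.9 CPM in pCAF and from 202 to 643 CPM in NMF. Epcam, which encodes a marker the sort selected against, had 0, 5 and 6 counts in pCAF. Among those that did not pass were Krt18 (log2 -0.25; 41.0, 124.5 and 160 CPM in pCAF), Krt8 (-0.03), Krt7 (0.02) and Krt14 (0.28). Within pCAF the epithelial sum was lowest, 137.5 CPM, in replicate 1, the library with the lowest Spp1. The part of epithelial cells in that value was not tested.

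Ibsp encodes bone sialoprotein, which promotes the start of mineral deposition and is a marker of osteoblasts. It lies on chromosome 5, 104299171 to 104311469, plus strand, 123648 bp before Spp1 and in the same cluster. It had 22, 9 and 9 counts in pCAF and 0, 0, 5 and 0 in NMF, or 12.2, 5.07 and 4.99 CPM against 0, 0, 1.76 and 0 CPM. All pCAF libraries had it, at low counts, and NMF replicate 3 was again the one NMF library with a signal. The means of 7.42 ± 4.14 and 0.440 ± 0.880 CPM (SD, n = 3 and n = 4) gave a fitted fold of 16.4 (log2 4.04, SE 1.11). The filter on low counts had kept Ibsp only through its pCAF libraries, the group where it was higher. Ibsp no longer passed without pCAF replicate 1, NMF replicate 1 or NMF replicate 2, nor with the replicate number as a block. Without NMF replicate 3 the NMF counts were 0 and the fold was at least 25.5, with 3 counts over the NMF group taken as the floor; without both libraries that stood apart it was 7.33.

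Other genes of this stretch of chromosome 5 differed from the pair. From Sparcl1 to Pkd2 the annotation has 7 protein-coding genes, of which 5 belong to the family of small integrin-binding phosphoproteins: Dspp, Dmp1, Ibsp, Mepe and Spp1. Dspp and Mepe, which encode tooth and bone matrix proteins, were at 0 counts in all 7 libraries, and Dmp1, an osteocyte gene, had 1 count, in NMF replicate 3. Such counts allow up to 0.557 CPM over the pCAF group and 0.228 CPM over the NMF group for a gene at 0. The flanking genes Sparcl1 (log2 -0.47, SE 0.42, adjusted p = 0.442) and Pkd2 (log2 -0.18, SE 0.42, adjusted p = 0.781) did not pass in edgeR's test. Sparcl1 passed as lower without pCAF replicate 1 (log2 -1.08, adjusted p = 0.0273) and without both libraries that stood apart (log2 -0.81, adjusted p = 0.00129).

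Sparc was higher in every pCAF library. It encodes osteonectin, a calcium- and collagen-binding glycoprotein of bone that fibroblasts and endothelial cells also secrete (chromosome 11, 55394500 to 55423183, minus strand). Its level was 22366, 18888 and 16391 CPM in pCAF. In NMF it was 4162, 4688, 6172 and 3796 CPM. The groups were far apart relative to the spread within each. Summed blood endothelial markers were lower in pCAF, and summed fibroblast markers, mostly collagen genes, were higher. The part of either cell type in the Sparc values was not tested. The fold was 4.08 (log2 2.03, SE 0.28), and 3.50 without both libraries that stood apart.

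Prg4, which was higher in pCAF, had the smallest standard error relative to its log2 fold change of the 9 fitted genes. It encodes lubricin, the mucin-like proteoglycan that coats joint surfaces (chromosome 1, 150449412 to 150466165, minus strand). Levels were 362, 304 and 209.5 CPM in pCAF and 13.5, 10.6, 10.6 and 11.2 CPM in NMF. The NMF libraries were nearly alike, NMF replicate 4 included, and every pCAF library was well above them. Means of 292 ± 77.0 and 11.5 ± 1.41 CPM (SD, n = 3 and n = 4) gave a fold of 25.4 (log2 4.67, SE 0.29), or 21.99 without both libraries that stood apart. The last exon of Prg4 overlaps Tpr on the other strand, and the strand setting of the counting is not known, so its share of reads is uncertain; Tpr had 114 to 278 counts in pCAF and 189 to 600 in NMF and did not pass (log2 0.47, SE 0.33, adjusted p = 0.327).

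Cilp and Thbs4 were higher in pCAF, with 1 NMF library far above the other NMF libraries in both. Cilp encodes cartilage intermediate layer protein, a secreted glycoprotein of cartilage and of activated fibroblasts (chromosome 9, 65265180 to 65280605, plus strand). It was at 421, 493 and 273 CPM in pCAF and at 35.9, 26.6, 34.9 and 149 CPM in NMF. The groups did not overlap, but NMF replicate 4 was 4.59 times the mean of the other NMF libraries. The fitted fold was 6.36 (log2 2.67, SE 0.57), and 12.4 without NMF replicate 4; without both libraries that stood apart it was 11.7.

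Thbs4 encodes thrombospondin 4, a pentameric calcium-binding matrix protein of tendon, muscle and nerve (chromosome 13, 92751590 to 92794818, minus strand). In pCAF it was at 73.2, 263 and 119 CPM, and in NMF at 18.2, 13.5, 14.1 and 68.9 CPM. The lowest pCAF and the highest NMF library nearly met, the latter being 4.52 times the mean of the other NMF libraries. The fitted fold was 5.18 (log2 2.37, SE 0.63). It was 9.995 without NMF replicate 4, 3.30 without pCAF replicate 2, and 12.4 without both libraries that stood apart. Thbs4 no longer passed without pCAF replicate 2 or without NMF replicate 1, 2 or 3.

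The difference of NMF replicate 4 from NMF replicates 1 to 3 was 2.19 on the log2 scale for Cilp and 2.13 for Thbs4. Only 0.342% and 0.418% of the 10535 tested genes had a larger positive difference in that library. In the same library Prg4 (-0.03) and Mgp (0.16) were close to the others and Sox9 was lower (-1.42). NMF replicate 4 also had the highest Schwann sum, 665 CPM against 138 to 433 CPM, and the highest fibroblast sum, 41131 CPM against 22031 to 30189 CPM. Myh11, a smooth muscle gene, was at 97.5 CPM in it, against 14.7 to 23.6 CPM in the other NMF libraries. The part of these cell types in the Cilp and Thbs4 values was not tested.

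**Figure D3:**
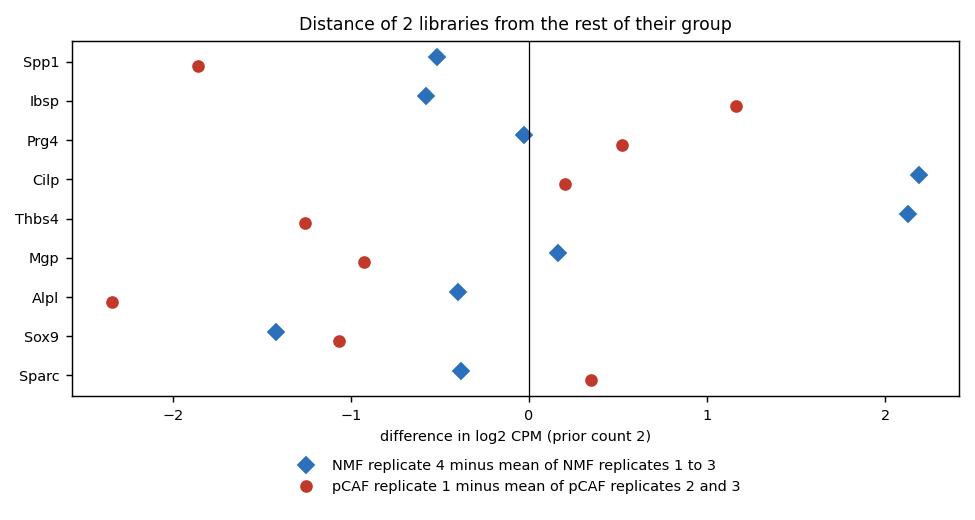
Difference in log2 CPM (prior count 2) of NMF replicate 4 from the mean of NMF replicates 1 to 3 (blue diamonds) and of pCAF replicate 1 from the mean of pCAF replicates 2 and 3 (red circles), for the 9 genes with tested values. Cilp and Thbs4 lie above 2 in NMF replicate 4, and Spp1 (-1.86) and Alpl (-2.34) lie lowest in pCAF replicate 1.

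Comp, a close relative of Thbs4, had the opposite order. It encodes cartilage oligomeric matrix protein, also called thrombospondin 5 (chromosome 8, 70373558 to 70382066, plus strand). It had 0, 2 and 0 counts in pCAF and 10, 4, 8 and 29 counts in NMF. Every NMF library was above every pCAF library, at low counts. The summed NMF level was 10.4-fold that of pCAF (exact 95% interval 2.75 to 88.5, for counting error only). This ratio was 7.59 without NMF replicate 4 (1.87 to 66.6) and at least 4.66 without pCAF replicate 2, where no pCAF count was left. It was 6.94 without pCAF replicate 1 or 3 (intervals 1.83 to 58.9 and 1.83 to 58.8). The gene was too low to be tested.

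Mgp and Alpl, which act on mineral in opposite ways, had overlapping groups and did not pass. Mgp encodes matrix Gla protein, a vitamin K-dependent inhibitor of calcification in vessels and cartilage (chromosome 6, 136872435 to 136875823, minus strand). It was at 770, 1375 and 1571 CPM in pCAF and at 605, 1192, 793 and 927 CPM in NMF. The groups overlapped through pCAF replicate 1, and the log2 fold change was 0.49 (SE 0.33). Mgp passed as higher, at log2 0.76, only when both libraries that stood apart were left out. In that fit 2802 of all 10838 tested genes passed as higher. Alpl encodes tissue-nonspecific alkaline phosphatase (chromosome 4, 137741733 to 137796384, minus strand). It had 2, 20 and 12 counts in pCAF and 40, 39, 36 and 59 in NMF, or 1.11, 11.3 and 6.65 CPM against 15.5, 16.5, 12.7 and 11.02 CPM. pCAF replicate 2 fell within the NMF range, and the log2 fold change was -1.12 (SE 0.61); endothelial cells, whose markers were lower in pCAF, also express this enzyme, and their part was not tested. It was -1.82 without pCAF replicate 2 and -0.73 without both libraries that stood apart, and Alpl did not pass in either fit.

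Sox9, the transcription factor that drives cartilage genes, was low in both groups (chromosome 11, 112782224 to 112787760, plus strand). Sox9 had 6, 14 and 14 counts in pCAF libraries and 25, 22, 25 and 16 counts in NMF libraries, or 3.33, 7.89 and 7.76 CPM against 9.66, 9.29, 8.80 and 2.99 CPM. The lowest value was in NMF replicate 4, which also had the lowest epithelial sum of its group, 202 CPM against 395 to 643 CPM; its part in the Sox9 value was not tested. The log2 fold change was -0.26 (SE 0.59), 0.05 without pCAF replicate 1 and -0.25 without both libraries that stood apart.

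Related genes were taken from 8 lists of bone and cartilage biology, 82 genes in all without the 10 above. These lists, too, were chosen with earlier results of these data known. Their counts, medians and adjusted p-values are therefore given as a description. Of these, 13 were at 0 counts in every library: Bglap and Bglap2 (osteocalcin), Mepe, Dspp, Phex, the osteoblast factor Sp7, the osteocyte gene Sost, the hypertrophic cartilage collagen Col10a1, Acan (aggrecan), Hapln1, Matn1, Ucma and Nkx3-2. Col2a1, the main cartilage collagen, had 0 to 3 counts per library. Other genes that osteoblasts or chondrocytes use had counts and went in both directions. Among them, Runx2, Ibsp, Col1a1 and Col11a1 were higher in pCAF. Cytl1, Lect1, Matn4 and Smpd3 were lower, and Alpl and Sox9 did not pass. Of the 39 related genes that could be tested, 17 were higher and 4 lower in pCAF. Their median log2 fold change was 0.84, against -0.02 over all genes. The shares over all genes, 14.3% higher and 14.2% lower, belong beside these counts and those of each list below. On NMF libraries alone, the filter on low counts would not have kept Tnfrsf11b, Col11a1 and Cd44. On pCAF libraries alone, it would not have kept Cytl1, Lect1, Matn4 and Smpd3. These genes thus entered the test through the group where they were higher. Without pCAF replicate 1, 8 of 43 tested were lower, beside 2187 of all 11048 tested genes. Without both libraries that stood apart, 23 of 42 tested were higher and 11 lower, beside 2802 and 2913 of all 10838 tested genes.

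Genes of bone mineral matrix and its handling went in both directions. Of 5 tested bone matrix genes, 3 were higher and 2 did not pass (median log2 fold change 1.70): the type I collagen genes Col1a1 (1.97, SE 0.31, adjusted p = 0.00126) and Col1a2 (1.72, SE 0.33, adjusted p = 0.00379), and Postn, which encodes the matrix protein periostin (1.70, SE 0.33, adjusted p = 0.00402). Ogn and Omd, leucine-rich proteoglycans, did not pass, at 117 ± 123 against 225 ± 116 CPM and 7.80 ± 5.07 against 18.5 ± 6.86 CPM (adjusted p = 0.297 and 0.103). Both passed as lower without pCAF replicate 1, the only pCAF library in the NMF range for Ogn and Omd (log2 -2.31 and -1.89, adjusted p = 0.00294 and 0.0144), and Omd also with library totals (adjusted p = 0.0485). Of 9 tested genes of mineral and pyrophosphate handling, 4 were higher and 1 lower (median 0.98). Slc20a1, a phosphate importer, was at 499, 238 and 255 CPM in pCAF and 20.1 to 28.5 CPM in NMF (log2 3.83, SE 0.33, adjusted p = 5.26e-05); its 3' end overlaps a noncoding transcript on the other strand, as does that of Thbs1, given further on. The other phosphate importer, Slc20a2, missed the threshold, at 34.3 ± 15.6 against 16.2 ± 2.77 CPM (adjusted p = 0.0610). It was past it with pCAF replicate 1 left out (adjusted p = 0.00264) and in DESeq2's test (adjusted p = 0.0353). Without both libraries that stood apart, Ogn, Omd and Slc20a2 each passed in the direction given (log2 -1.88, -1.59 and 1.32).

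Smpd3, a sphingomyelinase needed for normal mineralization, was lower, at 29.4, 3.94 and 4.43 CPM in pCAF and 290.5 to 884 CPM in NMF (log2 -5.38, SE 0.79, adjusted p = 8.32e-04; -6.96 without pCAF replicate 1). Its 3' end overlaps Prmt7 on the other strand, which did not pass (log2 0.04, adjusted p = 0.946). Nt5e, the ectonucleotidase CD73, which releases phosphate and adenosine from AMP, rose by log2 1.49 (SE 0.40, adjusted p = 0.0191). That call ended in 5 of 7 fits with a library left out (adjusted p up to 0.0870) and with the replicate block (0.0582). Ank, which exports ATP and pyrophosphate, was at 73.3 ± 25.2 against 33.97 ± 10.7 CPM (log2 1.11, adjusted p = 0.0384). In the vitamin K pathway that activates matrix Gla protein, the carboxylase gene Ggcx was at 31.6 ± 9.39 against 20.6 ± 5.37 CPM (adjusted p = 0.206). Vkorc1l1, a vitamin K reductase, passed at log2 0.98 (adjusted p = 0.0333) and lost that call in 5 of 7 fits with a library left out, with library totals (0.0990), without the filter (0.0820) and with the replicate block (0.0967); 2 annotated pseudogenes elsewhere match its 3' end, so its reads are uncertain.

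Only 2 of the 9 listed bone regulators could be tested, and both rose. Runx2 is given above (log2 2.00, SE 0.35, adjusted p = 0.00212). Tnfrsf11b encodes osteoprotegerin, the decoy receptor that restrains osteoclasts. It was at 33.3, 61.4 and 98.1 CPM in pCAF and 1.27 to 3.74 CPM in NMF (log2 4.40, SE 0.47, adjusted p = 1.66e-04). Its ligand gene Tnfsf11, not tested, had 1, 23 and 25 counts in pCAF and 0, 3, 0 and 0 in NMF.

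Cartilage matrix genes split. Of 8 tested, 2 were higher, 3 were lower and 3 did not pass (median log2 fold change 0.17, the same with Cytl1 at its bound). Col11a1, a fibril collagen chain of cartilage, was at 57.1, 47.3 and 63.7 CPM in pCAF and 0.352 to 2.96 CPM in NMF (log2 5.89, SE 0.62, adjusted p = 1.46e-04; 7.06 without NMF replicate 2). Fmod, which encodes the collagen-binding proteoglycan fibromodulin, was at 158 ± 35.5 against 10.8 ± 9.76 CPM (log2 3.80, SE 0.54, adjusted p = 7.37e-04; 4.75 without NMF replicate 4, its highest NMF library at 25.4 CPM). Cytl1, a cytokine-like gene of cartilage, had 0 counts in pCAF and 107, 221, 90 and 121 in NMF. NMF was at least 73.5-fold higher (adjusted p = 6.95e-04), and at least 48.9-fold without pCAF replicate 1 or 3 and 49.3-fold without pCAF replicate 2. Matn4, a matrilin, fell from 14.2 ± 4.36 to 1.68 ± 0.572 CPM (log2 -3.05, SE 0.55, adjusted p = 0.00256). Chondromodulin, listed as Lect1, had 2 pCAF counts against 222 in NMF, where its level was 45.4 times the pCAF level (95% counting interval 12.4 to 377; adjusted p = 0.00311). That ratio was 30.2 without pCAF replicate 1, 30.4 without pCAF replicate 2, at least 20.1 without pCAF replicate 3 and 27.6 without NMF replicate 4. Epyc and Prelp did not pass (adjusted p = 0.124 and 0.515). Epyc passed as higher without NMF replicate 3 (log2 1.91, adjusted p = 0.0474) and without both libraries that stood apart (log2 1.35, adjusted p = 0.0476). None of the 7 chondrogenic and tendon regulators had enough counts to be tested. Among them, Scx had 0, 23 and 20 counts in pCAF and 10, 6, 7 and 0 in NMF.

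**Figure D4:**
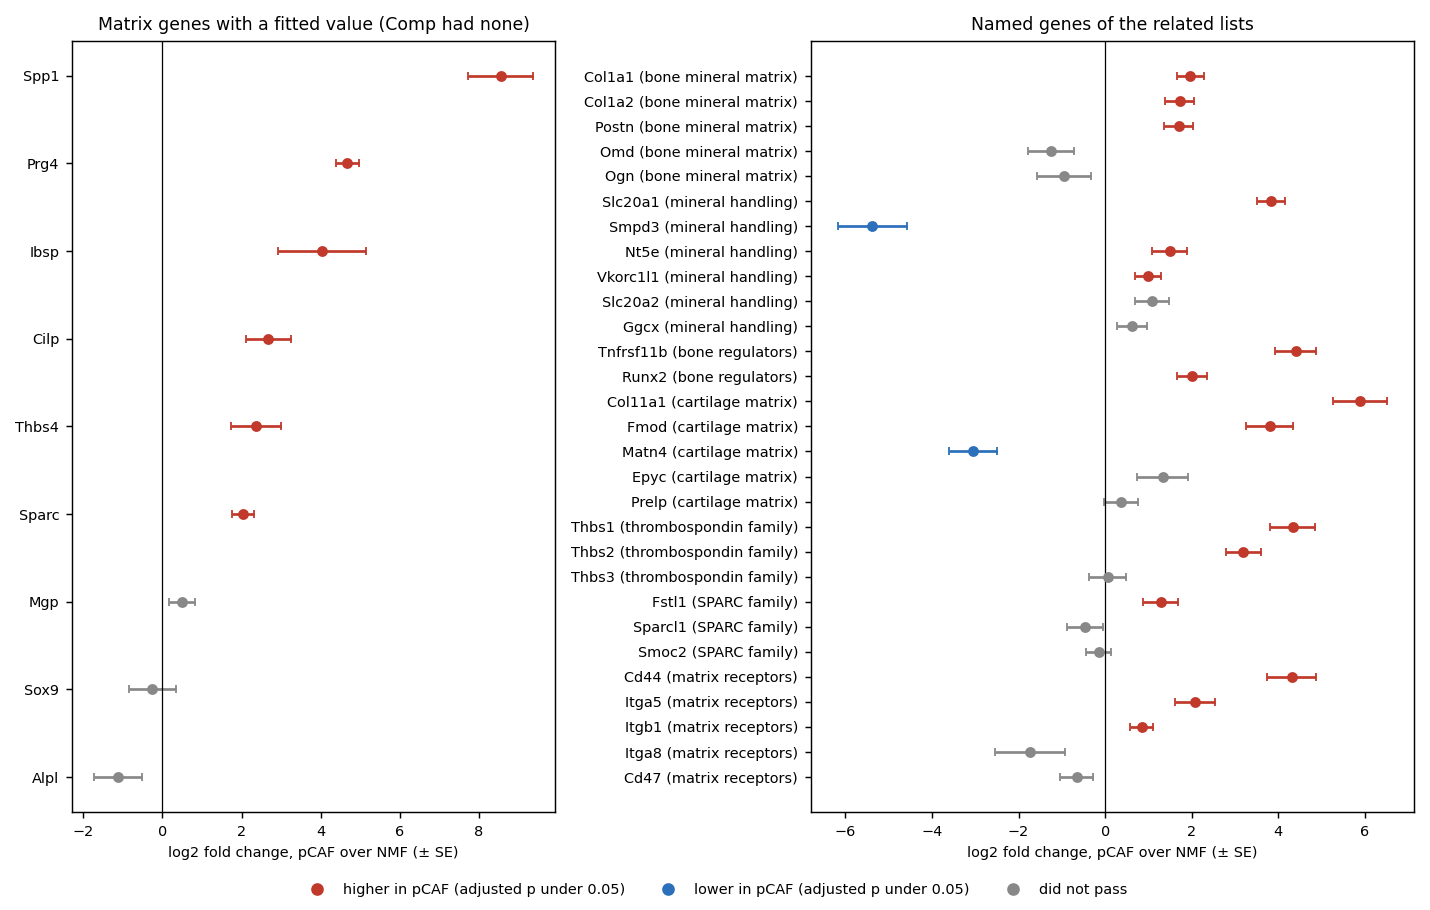
Log2 fold changes (pCAF over NMF) with their standard errors from edgeR, for the 9 genes with a fitted value (left) and for named genes of the related lists with fitted values (right); red and blue mark an adjusted p under 0.05, grey those that did not pass. The 6 red points on the left run from 2.03 (Sparc) to 8.55 (Spp1), and the right panel holds points on both sides of 0.

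Among relatives of Thbs4 and Comp, Thbs1 and Thbs2, which encode trimeric thrombospondins, rose. Thbs1 was at 222, 784 and 831 CPM in pCAF against 18.2 to 47.2 CPM in NMF (log2 4.33, SE 0.52, adjusted p = 2.83e-04), and Thbs2 at 278, 608 and 595 against 37.5 to 91.3 CPM (log2 3.19, SE 0.41, adjusted p = 4.05e-04; 3.86 without both libraries that stood apart). Thbs3 was at 304 ± 216 against 292 ± 85.8 CPM (adjusted p = 0.936), and its sign turned with library totals and without pCAF replicate 1. Without both libraries that stood apart it passed as lower (log2 -0.54, adjusted p = 0.0407). Its 3' end overlaps Mtx1 on the other strand. Of the 3 tested relatives of Sparc, Fstl1 alone passed (log2 1.28, SE 0.41, adjusted p = 0.0380). pCAF replicate 1, at 10925 CPM, was far above 4125 and 4066 CPM in the other pCAF libraries, and without it Fstl1 did not pass (log2 0.64, adjusted p = 0.0972); without NMF replicate 4 as well it passed at log2 0.54 (adjusted p = 0.0425). It also did not pass with any 1 NMF library left out (adjusted p from 0.0659 to 0.114), with library totals (0.0695) or with the replicate block (0.0801), and 3 other annotated genes match its 3' end. Smoc2 did not pass (76.5 ± 26.96 against 84.8 ± 5.92 CPM, adjusted p = 0.743).

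Receptors for osteopontin and thrombospondins rose in 3 of 9 tested cases, and 6 did not pass. Cd44, a receptor for hyaluronan and osteopontin, was at 179, 92.9 and 131 CPM in pCAF and 1.93 to 12.1 CPM in NMF (log2 4.31, SE 0.56, adjusted p = 4.67e-04). Itga5, an integrin chain, rose by log2 2.07 (SE 0.46, adjusted p = 0.00790; 1.40 without pCAF replicate 1). Its partner Itgb1 was at 594 ± 67.7 against 333 ± 74.04 CPM (log2 0.84, SE 0.26, adjusted p = 0.0355), a call that ended with library totals (0.110), without the filter (0.0630) and in 5 of 7 fits with a library left out. Itga8 and Cd47, an integrin chain and a thrombospondin receptor, did not pass (2.62 ± 2.84 against 8.80 ± 1.56 CPM and 258 ± 127 against 407 ± 74.8 CPM, adjusted p = 0.138 and 0.229). Both passed as lower without both libraries that stood apart (log2 -1.27 and -0.43, adjusted p = 0.0361 and 0.0422), and without pCAF replicate 2 the value of Itga8 was log2 -2.93 (adjusted p = 0.0644), against -1.73 with all libraries.

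The patterns of 8 of the 9 tested genes over the 7 libraries can also be set beside those of other genes, as a description. By Pearson correlation of log2 CPM, the tested genes of at least 10 CPM most like Spp1 were Fibin (0.998), Sec61b (0.997) and Timp1 (0.995). For Prg4 they were Tars (0.998), Tgfb3 and C430002N11Rik (0.997 each). For Ibsp they were Ap1s1 (0.998), Oxct1 (0.992) and Colgalt1 (0.991), at low Ibsp counts. For Cilp they were Ascc3 and Psma6 (0.986 each) and Cgref1 (0.983), and for Thbs4 Sike1 (0.989), Zfhx4 (0.988) and Wnt5a (0.977). For Mgp they were Sephs2 (0.969), Ulk2 (0.952) and Uchl5 (0.951). For Alpl they were Lnx2 (0.998), Tyk2 (0.993) and Cpsf7 (0.992), and for Sox9 Oaz1 (0.999), Fgfr1 (0.991) and Tmed2 (0.990). For the genes whose groups were apart, the difference between the groups enters such a correlation, and it ranks genes by likeness over these 7 libraries only.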

How the data were processed

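The sequenced fragments come from 3' ends of polyadenylated transcripts, per the labels' protocols, which also give different collagenase mixtures for tumor and fat pad. The authors deposited raw counts per gene symbol; bcl2fastq, STAR 2.4.2a, HTSeq and mm10 are named in the submitters' processing notes, without roles. Annotation, strand setting and use of molecular identifiers are not given in the sources used here.

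Groups followed the sample titles. From the counts, edgeR 4.0.16 (R 4.3.3) gave TMM-scaled CPM and a robust quasi-likelihood F test of pCAF against NMF, two-sided, after filterByExpr, with Benjamini-Hochberg adjustment over 10535 of 24421 genes and a threshold of 0.05. Standard errors were taken from the fold change and its F statistic. A fold against a group at 0 used a floor of 3 counts over the group; 1 to 3 counts got an exact 95% counting interval. Alternatives were DESeq2 1.42.0 (its size factors or its test), library totals, no filter, a block on replicate number, leaving out each library in turn, and both libraries that stood apart left out. Fits of the related genes under these were added after the data were seen.

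The genes, the lists and the rule for named genes were chosen with earlier results of these data known. The rule names all 10 genes, up to 4 genes per related list by adjusted p, up to 2 others that did not pass or had the opposite sign, and Runx1, Runx2 and Cbfb. Ank, Lect1, Tnfsf11, Scx, Col2a1, Pkd2, the genes at 0 counts, marker genes and genes sharing a 3' end were named after their values were seen. Cbfb was at 115 ± 18.3 CPM in pCAF and 29.1 ± 8.99 CPM in NMF. Positions came from GENCODE M21 (mm10), where all 10 genes were matched. Overlaps used the last 1000 bp of transcripts, and copies were sought with blastn 2.17.0 in the last 300 bp (matches of at least 80 bp at 95% identity). Spp1 and Prg4 each had 1 such match (Gm42793 and Tpr). The genes most like Sparc are not reported here. Motifs were sought in RefSeq windows (GRCm38.p6). Markers of lymphatic endothelium (1 of 3 tested higher, 1 lower), pericytes (3 of 7 lower) and osteoclasts (1 of 2 higher) were checked as well. Python 3.11.15, pandas 2.3.3 and matplotlib 3.10.9 made tables and figures.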

Additional observations from a re-analysis of the deposited data

Results flagged for a closer look

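In 10 of 40 genes checked, 1 of the 4 NMF libraries lay far from the other 3, by the gap relative to the whole range, and 7 of the 10 were NMF replicate 4. Chance gives about 1 in 20 for normally distributed values, which low counts such as those of Ibsp and Col11a1 are not. Over all tested genes with any NMF spread the same gap was found in 924 of 10516 (8.79%), of which 72.8% were NMF replicate 4, so the concentration in that library is shared with the rest of the genes. Among the bone and cartilage matrix genes these were Spp1 in NMF replicate 3 (21.8 CPM against 3.09 to 4.67), Ibsp in NMF replicate 3 (1.76 against 0), Cilp in NMF replicate 4 (149 against 26.6 to 35.9), Thbs4 in NMF replicate 4 (68.9 against 13.5 to 18.2) and Sox9 in NMF replicate 4 (2.99 against 8.80 to 9.66). Among the related genes they were Ogn (398 against 160.5 to 177 CPM), Fmod (25.4 against 4.93 to 7.18), Prelp (574 against 248 to 303) and Thbs2 (91.3 against 37.5 to 45.1), all in NMF replicate 4, and Col11a1 in NMF replicate 2 (2.96 against 0.352 to 0.386).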

How the results depend on the processing

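The count of 6 matrix genes higher in pCAF was 6 with DESeq2 size factors, library totals, no filter and DESeq2's test, 5 with the replicate block, 4 to 6 with a library left out and 7 without both libraries that stood apart; 0 were lower under every alternative. Related genes higher in pCAF numbered 12 to 21 with a library left out (17 with all; 13 with library totals; 23 without both libraries), and those lower 4 to 8 (4 with all); without both libraries 11 were lower. All-gene counts moved as well. With a library left out, 1016 to 2021 of all tested genes were higher (1503 with all libraries, 1121 with library totals). Those lower then numbered 979 to 2187 (1491 with all libraries, 1902 with library totals). Directions turned for Sox9 without pCAF replicate 1 (log2 0.05), Prelp without pCAF replicate 1 (-0.04), Smoc2 without pCAF replicate 1 (0.11) and without both libraries (0.10), and Thbs3 with library totals (-0.23), with pCAF replicate 1 left out (-0.71), with NMF replicate 2 left out (-0.12) and without both libraries (-0.54). Leaving out 1 library at a time gave log2 ranges of -0.53 to 0.05 for Sox9, -0.04 to 0.76 for Prelp, -0.71 to 0.33 for Thbs3 and -0.33 to 0.11 for Smoc2. Over all genes, library totals moved the median log2 fold change from -0.02 to -0.26. Comp was fitted only without the filter (log2 -3.11, not past the threshold). No pairing of the samples by replicate number was seen. Deviations of same-numbered libraries from their group means correlated at -0.09, 0.08 and -0.01, and not every library correlated best with its own number. These values cannot settle whether samples were paired, because pCAF replicate 1 and NMF replicate 4 weigh heavily on such deviations. With the replicate block, Ibsp (log2 3.74) lost its call, Cilp was at 3.57, 13 related genes were higher and 4 lower, and over all genes 978 were higher and 1023 lower (1503 and 1491 without it; 2802 and 2913 without both libraries that stood apart). Related genes with few counts (43 of 82 not tested) are limited by depth.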
